A study of Homo sapiens and Mus musculus with 12 samples.

Results

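The genes of hyaluronan synthesis, binding and breakdown and of the hyaluronan-binding proteoglycans were followed in 2 breast cancer cell lines treated with ponatinib, a multi-targeted tyrosine kinase inhibitor. The set holds 9 genes (*HAS1*, *HAS2*, *HAS3*, *CD44*, *HYAL1*, *HYAL2*, *CEMIP*, *ACAN* and *VCAN*) and the mouse genes of the same symbols, so 9 of the 63677 identifiers counted in the human line and 9 of the 47729 counted in the mouse line. It was put together knowing that *HAS2* and *Acan* were among the strongest falls with ponatinib, so the changes of the 9 genes with ponatinib are given as a description, with no p-value. RNA-seq covered MDA-MB-231, a human triple-negative breast cancer (TNBC) line, and 4T1, a mouse mammary carcinoma line, both labelled as wild type epithelial cells. Cells of each line were kept for 24 h in 1 µmol/L ponatinib or in DMSO, its solvent, with 3 libraries in each group and 12 in total. No source used here says whether the 3 libraries of a group came from separate cultures, so the errors cover the spread between these libraries, which may be technical. Total counts ranged from 15012884 to 17301760 per MDA-MB-231 library and from 17800675 to 18951493 per 4T1 library. Of 6 epithelial markers, 5 had at least 10 counts in every MDA-MB-231 library and 6 in every 4T1 library. The exception was *CDH1* (E-cadherin), with 1 count over the 6 MDA-MB-231 libraries. All values are of transcripts, and the amount of the polymer was not analysed here.

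Hyaluronan is a long, unsulfated sugar polymer of the extracellular matrix. It is made at the plasma membrane by the hyaluronan synthases HAS1, HAS2 and HAS3 from the activated sugars UDP-glucuronic acid and UDP-N-acetylglucosamine, and it leaves the cell as it grows. CD44 is its main cell surface receptor, the hyaluronidases HYAL1 and HYAL2 and the protein CEMIP take part in its breakdown, and the large chondroitin sulfate proteoglycans aggrecan (*ACAN*) and versican (*VCAN*) bind along the chain. In breast tumors the polymer and its receptor are known for their part in the pericellular coat, cell adhesion and migration.

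The promoters of 3 genes on which the results turn are shown first, because *Acan* fell in 4T1 and *CEMIP* and *Cemip* rose in their lines. Each sequence is the 250 bases before the start of the canonical GENCODE transcript on the strand of the gene, read from the genome. Capitals mark matches to any of 5 motifs searched on both strands, namely AP-1 (TGANTCA), STAT (TTCNNNGAA), ETS (CCGGAAG), the TATA box (TATAAA) and the E-box (CACGTG).
Acan, chr7:78702714-78702963 of GRCm39, plus strand: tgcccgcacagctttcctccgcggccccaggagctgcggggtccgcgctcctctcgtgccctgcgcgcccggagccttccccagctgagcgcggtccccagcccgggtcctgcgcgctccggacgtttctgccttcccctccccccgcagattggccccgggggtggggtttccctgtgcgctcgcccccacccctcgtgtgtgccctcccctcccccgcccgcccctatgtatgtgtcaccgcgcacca
Cemip, chr7:83735711-83735960 of GRCm39, minus strand: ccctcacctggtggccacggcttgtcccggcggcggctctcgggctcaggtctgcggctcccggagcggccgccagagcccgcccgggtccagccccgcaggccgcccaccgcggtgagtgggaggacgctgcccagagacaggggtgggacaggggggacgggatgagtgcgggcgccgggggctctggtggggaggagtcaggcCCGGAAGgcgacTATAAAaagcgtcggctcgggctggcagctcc
CEMIP, chr15:80779120-80779369 of hg38, plus strand: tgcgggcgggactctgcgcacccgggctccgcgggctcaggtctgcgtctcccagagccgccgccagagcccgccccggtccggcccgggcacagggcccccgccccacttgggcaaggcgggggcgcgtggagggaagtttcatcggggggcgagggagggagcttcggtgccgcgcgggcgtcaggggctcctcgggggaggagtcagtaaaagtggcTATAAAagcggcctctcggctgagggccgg

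The TATA box letters began at position -30 of human *CEMIP* and at -32 of mouse *Cemip*, counted back from the transcript start. *Cemip* also held the ETS letters at -44. No other match of the 5 motifs lay in these windows. Over all protein-coding promoters of the same length, the TATA box letters were in 9.07% of 19320 human and 11.8% of 21236 mouse windows, and the ETS letters in 12% and 6.87%. AP-1 letters were in 4.67% and 6.18%, STAT letters in 5.63% and 7.77%, and E-box letters in 7.87% and 6.31%. The GC content was 74.4% for *Acan*, 74.8% for *Cemip* and 74.4% for *CEMIP*. A match is a run of letters and not a measured binding site.

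Transcript levels of different genes were compared per length, as TPM values (a length-normalised share of all transcripts) computed from the counts and the joined exons of each gene. With DMSO, *CD44* was the highest of the 9 genes in MDA-MB-231, at 175 ± 15.7 TPM (SD, n = 3), followed by *HYAL2* at 27.7 ± 1.65 TPM and *HAS2* at 14.8 ± 2.25 TPM. *HAS3* (0.997 ± 0.101 TPM) and *HYAL1* (0.865 ± 0.260 TPM) overlapped, *CEMIP* lay below them at 0.450 ± 0.117 TPM, and *VCAN*, *HAS1* and *ACAN* had mean levels of 0.120, 0.0310 and 0.0247 TPM, with overlapping neighbors. The order in 4T1 differed at its top, where *Acan* came before *Cd44*. *Acan* stood at 303 ± 36.4 TPM, rank 517 from the highest among all genes, *Cd44* at 188 ± 8.97 TPM and *Hyal2* at 42.2 ± 2.86 TPM. *Has2* (3.38 ± 0.452 TPM) lay above *Has3* (2.51 ± 0.395 TPM), which overlapped *Hyal1* (2.38 ± 0.442 TPM), and *Cemip* was at 0.474 ± 0.0266 TPM. The lowest in 4T1 were *Vcan* (0.232 ± 0.0418 TPM) and *Has1* (0.169 ± 0.147 TPM), which overlapped. Aggrecan, known best from cartilage, was thus an abundant transcript of the mouse line and was at the edge of detection in the human line.

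**Figure D1:**
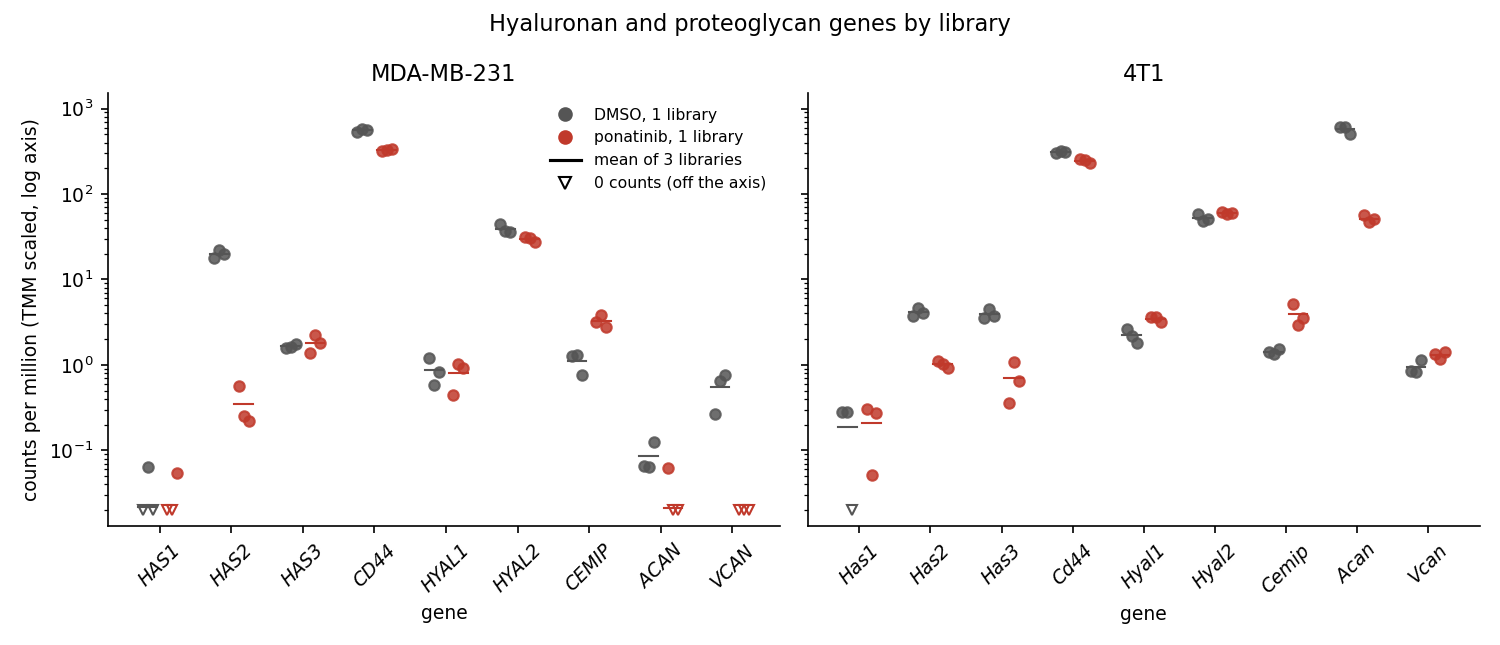
Read counts scaled by library size (CPM after TMM, log axis) of the 9 genes in every library of MDA-MB-231 (left) and 4T1 (right), DMSO in grey and ponatinib in red, with a line at the mean of 3 libraries and open triangles for 0 counts. *HAS2* in MDA-MB-231 dropped from about 20.0 to 0.347 CPM and *Acan* in 4T1 from 574 to 51.7 CPM, while *CEMIP* and *Cemip* lay higher with ponatinib in every library.

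Changes with ponatinib were fitted for all genes of a line with the quasi-likelihood test of edgeR, and a gene was called lower or higher at a Benjamini-Hochberg adjusted p-value under 0.05. In MDA-MB-231, 6 of the 9 genes passed the filter on low counts. Of these, 3 were called lower (*HAS2*, *CD44* and *HYAL2*), where 26.8% of all 14610 genes tested were called lower, and 1 was called higher (*CEMIP*), where 27.2% were. *HAS3* and *HYAL1* were not called, and *HAS1*, *ACAN* and *VCAN* were not tested. In 4T1, 8 of the 9 passed the filter. Of these, 4 were called lower (*Has2*, *Has3*, *Cd44* and *Acan*), against 29.4% of all 13286 genes tested, and 2 were called higher (*Hyal1* and *Cemip*), against 29.5%. *Hyal2* and *Vcan* were not called, and *Has1* was not tested. Since the choice of the genes used this contrast, nothing is read from these counts against the background.

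Of the synthases, *HAS2* (ENSG00000170961, chromosome 8 of hg38 from 121612116 to 121641440, minus strand) is the form most often linked to long polymer in stromal and tumor cells. In MDA-MB-231 it was counted at 17.9, 22.0 and 20.1 CPM in the DMSO libraries and at 0.567, 0.254 and 0.219 CPM in the ponatinib libraries, from 270, 340 and 320 counts to 9, 4 and 4. In bulk libraries, fewer cells with a transcript and less of it per cell cannot be told apart. The groups lay far apart, with the lowest DMSO library above the highest ponatinib library by more than the spread within either group. The mean fell from 20.0 ± 2.05 to 0.347 ± 0.192 CPM (SD, n = 3 each), with a log2 fold change of -5.84 (standard error 0.24). From the summed counts, 930 against 17, the ratio was 58.7 (95% Clopper-Pearson interval 36.5 to 101, counting error only). This was the largest fall among the 9604 genes whose higher group averaged 10 CPM or more and the second largest of all 14610 tested, and it was among the values that chose the set. The remaining 17 counts carry the level with ponatinib, and *HAS2* was not tested under a filter that asks for 10 counts in every library.

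*Has2* in 4T1 (ENSMUSG00000022367, chromosome 15 of GRCm39 from 56528342 to 56557999, minus strand) had 3.74, 4.61 and 4.04 CPM with DMSO and 1.12, 1.03 and 0.921 CPM with ponatinib. Every ponatinib library lay below every DMSO library, which was the case for 30.8% of all genes tested in 4T1 and for 29.8% in MDA-MB-231. The log2 fold change was -2.0 (standard error 0.24). *HAS2* thus fell in both lines, by an amount that was smaller in 4T1 by 3.84 on the log2 scale (standard error 0.39, from the interaction of line and treatment over 12489 paired genes, 42.0% of which were called different between the lines).

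*HAS3*, which is known for shorter chains, moved in 4T1 but was not called in MDA-MB-231. In 4T1, *Has3* (ENSMUSG00000031910, chromosome 8 of GRCm39 from 107596874 to 107611198, plus strand) had 3.51, 4.50 and 3.77 CPM with DMSO and 0.358, 1.08 and 0.650 CPM with ponatinib, and the log2 fold change was -2.48 (standard error 0.32). Again the groups did not overlap. In MDA-MB-231, *HAS3* (ENSG00000103044, chromosome 16 of hg38 from 69105653 to 69118719, plus strand) had 1.59, 1.62 and 1.76 CPM with DMSO and 1.39, 2.23 and 1.80 CPM with ponatinib, where the groups overlapped and the log2 fold change was 0.12 (standard error 0.27). The change in 4T1 minus that in MDA-MB-231 was -2.61 (standard error 0.42). *HAS1* was near the limit of detection in both lines. It had 1 count over the 3 DMSO libraries and 1 over the 3 ponatinib libraries of MDA-MB-231, both under the floor of 3 counts, and 10 against 12 counts in 4T1, where ponatinib over DMSO was 1.13 (95% Clopper-Pearson interval 0.447 to 2.91, counting error only).

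Summed over the 3 synthases, the level went from 15.8 ± 2.36 to 1.44 ± 0.204 TPM in MDA-MB-231 and from 6.06 ± 0.896 to 1.57 ± 0.113 TPM in 4T1 (SD, n = 3 each). The sums with DMSO did not overlap between the lines, at 13.2 to 17.8 TPM against 5.44 to 7.09 TPM. With ponatinib they did, at 1.22 to 1.63 TPM against 1.47 to 1.69 TPM, although the levels of the lines rest on different annotations. In MDA-MB-231, *HAS2* made up 93.5% ± 0.327 of the synthase TPM with DMSO and 19.3% ± 12.2 with ponatinib, when *HAS3* held 78.8% ± 10.9. In 4T1, the share of *Has2* was 55.9% ± 1.74 with DMSO and 57.1% ± 6.47 with ponatinib, and that of *Has3* was 41.4% ± 0.915 and 29.7% ± 13.8. In MDA-MB-231 the share of *HAS3* was larger with ponatinib because *HAS2* fell. The level of *HAS3* itself was 0.997 ± 0.101 TPM with DMSO and 1.15 ± 0.310 TPM with ponatinib, and its change was not called. The share of *Has2* differed by less than its spread in 4T1.

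**Figure D2:**
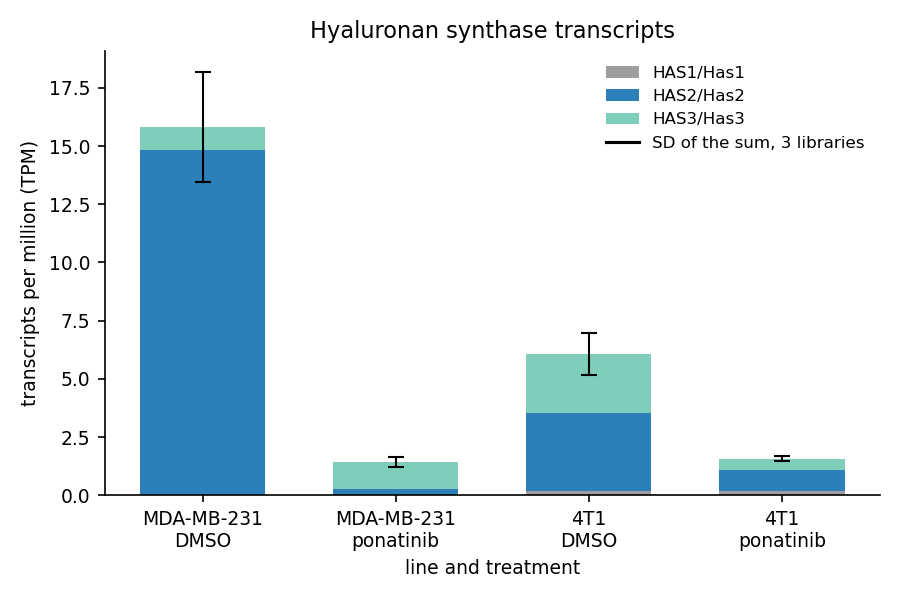
TPM of the 3 hyaluronan synthases, stacked as means of 3 libraries, by line and treatment, with the SD of their sum as the error bar. The bar of MDA-MB-231 with DMSO (15.8 TPM) was almost all *HAS2*, the bars with ponatinib were 1.44 and 1.57 TPM, and *HAS2* kept a share of 19.3% in MDA-MB-231 against 57.1% in 4T1.

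Genes annotated on the opposite strand share exon bases with several members, and whether the counting used strand is not given in the sources used here. *HAS2-AS1* overlaps 5.92% of the exon bases of *HAS2* and had 8, 7 and 2 counts with DMSO and 1, 1 and 0 with ponatinib. *Has2os* overlaps 8.03% of those of *Has2* and had 31 counts with DMSO and 33 with ponatinib, for a log2 fold change of 0.00 (standard error 0.43). Thus *Has2os* was listed at like counts while *Has2* fell. *Chtf8*, over 5.51% of the exon bases of *Has3*, was called lower with a log2 fold change of -0.42 (standard error 0.07). It had 10067 counts with DMSO and 8026 with ponatinib, far above the 212 and 40 of *Has3*. Reads over the shared bases cannot be told apart without strand, and their part in the change of *Has3* was not tested.

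The receptor *CD44* was lower with ponatinib in both lines and stayed the highest or among the highest of the 9 genes. In MDA-MB-231, *CD44* (ENSG00000026508, chromosome 11 of hg38 from 35138882 to 35232402, plus strand) had 538, 575 and 565 CPM with DMSO and 321, 326 and 334 CPM with ponatinib, with a mean of 559 ± 19.4 against 327 ± 7.03 CPM (SD, n = 3 each) and a log2 fold change of -0.77 (standard error 0.07). In 4T1, *Cd44* (ENSMUSG00000005087, chromosome 2 of GRCm39 from 102641486 to 102732010, minus strand) had 306, 319 and 312 CPM with DMSO and 256, 252 and 228 CPM with ponatinib, and the log2 fold change was -0.35 (standard error 0.07). The groups did not overlap in either line. The change in 4T1 minus that in MDA-MB-231 was 0.43 (standard error 0.10). *CD44* is counted per gene, so its splice forms cannot be told apart. On the opposite strand, *CD44-DT* had 10 against 6 counts and *CD44-AS1* 7 against 4 counts in MDA-MB-231, small beside *CD44*.

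Of the breakdown genes, *CEMIP*, needed for hyaluronan depolymerization in fibroblasts, was the member called higher in both lines. In MDA-MB-231, *CEMIP* (ENSG00000103888, chromosome 15 of hg38 from 80779343 to 80951776, plus strand) had 1.26, 1.29 and 0.754 CPM with DMSO and 3.15, 3.82 and 2.79 CPM with ponatinib, and the log2 fold change was 1.55 (standard error 0.28). In 4T1, *Cemip* (ENSMUSG00000052353, chromosome 7 of GRCm39 from 83582065 to 83735724, minus strand) had 1.42, 1.33 and 1.53 CPM with DMSO and 5.21, 2.94 and 3.58 CPM with ponatinib, and the log2 fold change was 1.45 (standard error 0.26). Every ponatinib library lay above every DMSO library, as for 30.6% of all genes tested in MDA-MB-231 and 32.6% in 4T1. The changes differed between the lines by -0.10 (standard error 0.39), less than the standard error. With ponatinib the level was 1.40 ± 0.239 TPM in MDA-MB-231 and 1.39 ± 0.441 TPM in 4T1. These levels depend on the length used, as with the longest transcript in place of the joined exons they were 1.07 ± 0.182 and 1.74 ± 0.549 TPM. With either length, *CEMIP* then lay above *HAS2* in MDA-MB-231 (0.262 ± 0.128 TPM), as *Cemip* did above *Has2* in 4T1 (0.897 ± 0.109 TPM). *MESD*, on the opposite strand over 2.94% of the exon bases of *CEMIP*, was called lower with a log2 fold change of -0.24 (standard error 0.08). It had 2901 counts with DMSO and 2630 with ponatinib, far above the 51 and 161 of *CEMIP*. The part of the shared bases in the change of *CEMIP* was not tested.

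*HYAL2*, a membrane-anchored hyaluronidase, was called lower in MDA-MB-231. There, *HYAL2* (ENSG00000068001, chromosome 3 of hg38 from 50317790 to 50322782, minus strand) had 44.8, 36.8 and 36.4 CPM with DMSO and 31.3, 30.7 and 27.2 CPM with ponatinib, and the log2 fold change was -0.40 (standard error 0.11). In 4T1, *Hyal2* (ENSMUSG00000010047, chromosome 9 of GRCm39 from 107445086 to 107450171, plus strand) had 58.0, 48.9 and 51.4 CPM with DMSO and 61.0, 59.0 and 60.2 CPM with ponatinib. The groups did not overlap, and the log2 fold change of 0.19 (standard error 0.08) was not called. It was called higher in 4 of 12 alternatives, with the replicate number as a block (0.19), total counts (0.30), the filter of 10 counts in every library (0.20) and without DMSO replicate 1 (0.26). The change in 4T1 minus that in MDA-MB-231 was 0.59 (standard error 0.14). *HYAL2* shares 11.5% of its exon bases with *TUSC2* on the same strand, which had a log2 fold change of -0.28 (standard error 0.10).

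*HYAL1*, a lysosomal hyaluronidase, was at or below 4 CPM in all libraries. In MDA-MB-231, *HYAL1* (ENSG00000114378, chromosome 3 of hg38 from 50299890 to 50312381, minus strand) had 1.19, 0.582 and 0.817 CPM with DMSO and 0.441, 1.02 and 0.929 CPM with ponatinib, with a log2 fold change of -0.11 (standard error 0.42) and overlapping groups. In 4T1, *Hyal1* (ENSMUSG00000010051, chromosome 9 of GRCm39 from 107454126 to 107458909, plus strand) had 2.66, 2.17 and 1.80 CPM with DMSO and 3.63, 3.61 and 3.14 CPM with ponatinib, and the log2 fold change was 0.65 (standard error 0.22). This call was lost with DESeq2 (0.64) and without DMSO replicate 2 (0.64), DMSO replicate 3 (0.52), ponatinib replicate 1 (0.61) or ponatinib replicate 2 (0.62). *Hyal1* also shares 50.8% of its exon bases with *Naa80* and 38% with *Hyal3*, and both of these rose with ponatinib, with log2 fold changes of 0.81 (standard error 0.14) and 1.96 (standard error 0.47), so counts of the 3 genes are uncertain. The part of these shared bases in the change of *Hyal1* was not tested.

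**Figure D3:**
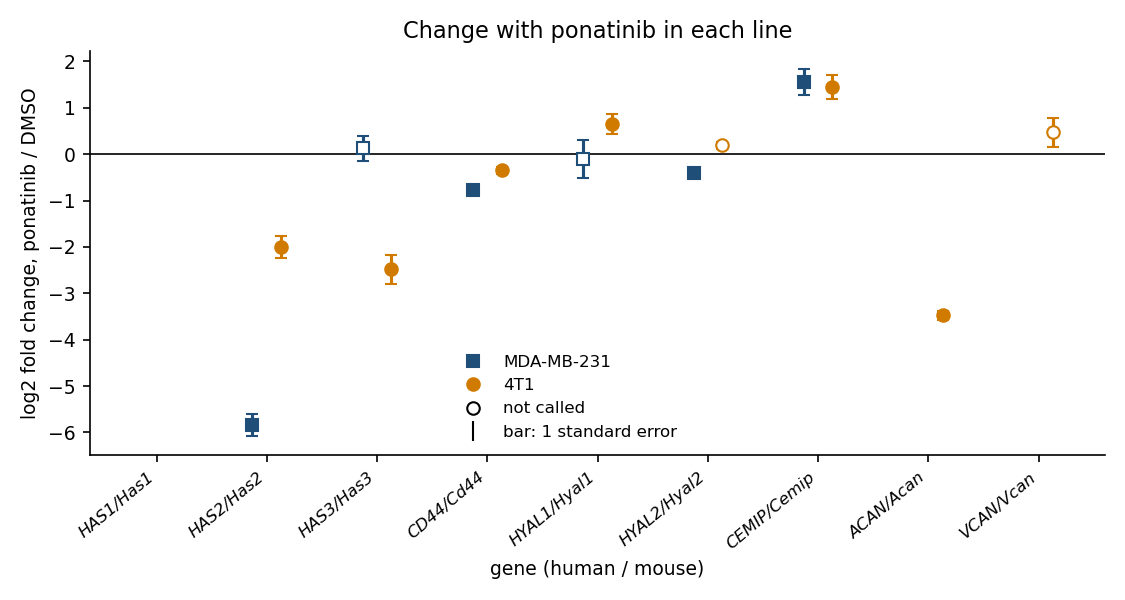
Log2 fold change of ponatinib over DMSO with 1 standard error for the members tested in MDA-MB-231 (blue squares) and 4T1 (orange circles), open where the change was not called. *HAS2* at -5.84 and *Acan* at -3.47 lie lowest, *CEMIP* and *Cemip* at 1.55 and 1.45 lie highest, and *HAS3* and *Has3* lie apart at 0.12 and -2.48.

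The proteoglycan aggrecan fell in the line that expressed it. In 4T1, *Acan* (ENSMUSG00000030607, chromosome 7 of GRCm39 from 78702964 to 78764847, plus strand) had 607, 613 and 502 CPM with DMSO and 56.9, 47.5 and 50.5 CPM with ponatinib. The mean went from 574 ± 62.6 to 51.7 ± 4.78 CPM (SD, n = 3 each), with a log2 fold change of -3.47 (standard error 0.10), or 11.1-fold lower. The lowest DMSO library stood above the highest ponatinib library by a wide margin. The fall ranked 9 of 9466 genes that reached 10 CPM in the group with the higher mean and 39 of all 13286 tested, and it was among the values that chose the set. At 29.1 ± 3.15 TPM with ponatinib, *Acan* was still the third of the 9 genes, after *Cd44* (158 ± 13.1 TPM) and *Hyal2* (51.4 ± 1.67 TPM). *Gm26633*, a long noncoding RNA on the opposite strand over 4.89% of the exon bases of *Acan*, had 252, 109 and 93 counts with DMSO and 32, 14 and 7 with ponatinib and was called lower with a log2 fold change of -3.19 (standard error 0.44). Reads of *Acan* and *Gm26633* cannot be told apart without strand, though the counts of *Gm26633* are small beside those of *Acan*. In MDA-MB-231, *ACAN* had 4 counts over the DMSO libraries and 1 over the ponatinib libraries (ratio 4.29, 95% Clopper-Pearson interval 0.425 to 211, counting error only), so a change was not detectable at this depth.

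Versican was low in both lines. *VCAN* in MDA-MB-231 (ENSG00000038427, chromosome 5 of hg38 from 83471618 to 83582303, plus strand) had 4, 10 and 12 counts with DMSO and 0 in each ponatinib library, at least 9.30-fold lower against a floor of 3 counts over the group, and did not pass the filter on low counts. It was called lower by DESeq2, by edgeR with no filter, and without DMSO replicate 1 or any 1 of the ponatinib replicates, when it passed the filter. *Vcan* in 4T1 (ENSMUSG00000021614, chromosome 13 of GRCm39 from 89803431 to 89890814, minus strand) had 0.850, 0.833 and 1.15 CPM with DMSO and 1.33, 1.19 and 1.41 CPM with ponatinib. These groups did not overlap, yet the log2 fold change of 0.47 (standard error 0.31) was not called.

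The profiles most like those of *HAS2* and *Acan* were found by the root mean square difference of log2 CPM, centered on the mean of each gene over the 6 libraries of the line, among genes at or above 10 CPM in either group. For *HAS2* these were *CSF3* (0.213 on the log2 scale), which encodes granulocyte colony-stimulating factor, *IL1B* (0.318), which encodes interleukin-1β, and *ESM1* (0.330), which encodes the dermatan sulfate proteoglycan endocan, of 9603 genes compared. *CSF3* had 32.0, 29.0 and 31.1 CPM with DMSO and 1.07, 0.573 and 0.601 CPM with ponatinib. Per length, *CSF3* was at 43.2 ± 1.87 TPM with DMSO and 1.09 ± 0.337 TPM with ponatinib, above *HAS2* in both groups (14.8 ± 2.25 and 0.262 ± 0.128 TPM). For *Acan* they were *P2rx7* (0.127), an ATP-gated channel, *Ptpn5* (0.150), a tyrosine phosphatase, and *Tnc* (0.160), the matrix glycoprotein tenascin C, of 9465 genes compared. *Tnc* had 12.8, 13.7 and 9.62 CPM with DMSO and 0.919, 0.671 and 0.975 CPM with ponatinib, the latter from 18, 13 and 18 counts. These 6 genes were selected for their likeness on the same libraries, which the compared genes share. Centering removes the level of each gene, so a step of like size follows from the selection.

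**Figure D4:**
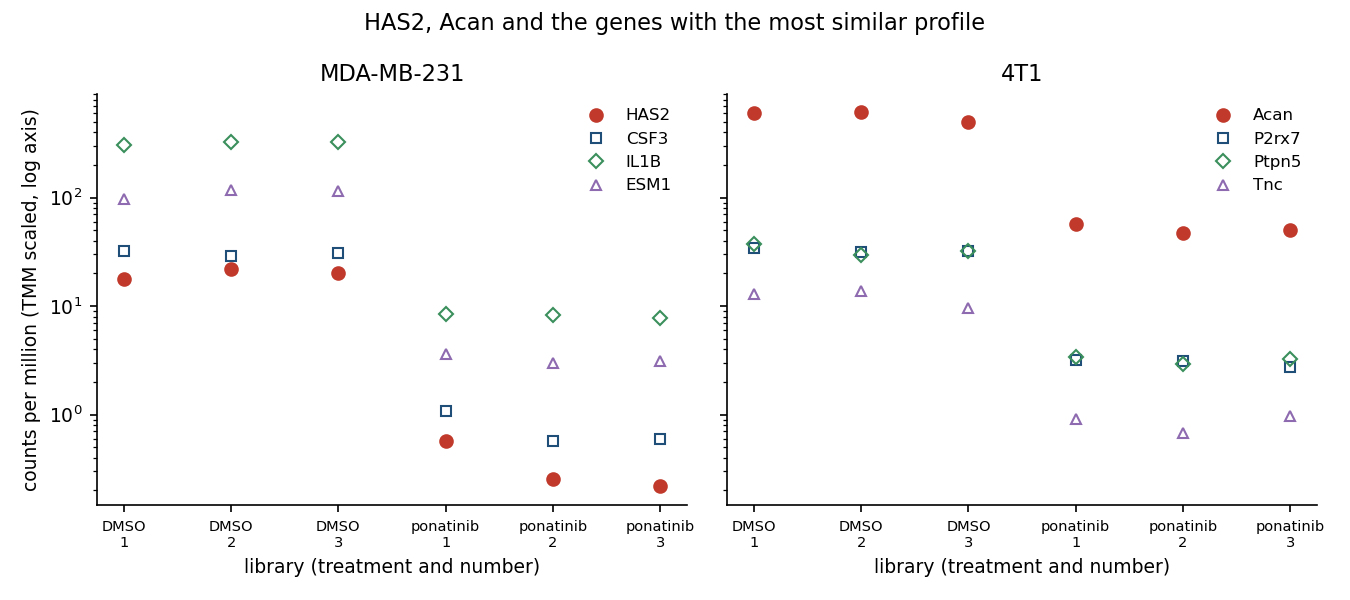
CPM (TMM scaled, log axis) by library of MDA-MB-231 for *HAS2* (filled) with *CSF3*, *IL1B* and *ESM1*, and of *Acan* (filled) with *P2rx7*, *Ptpn5* and *Tnc* in 4T1 (open symbols). All 3 ponatinib libraries of every gene lie below its DMSO libraries. The genes with open symbols were chosen by likeness after centering, which removes the level, so a step of like size follows from the choice.

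The other genes of the pathway were taken from 6 lists by role, 94 genes in all, none of them among the 9. In MDA-MB-231, 61 were tested, 24 were called lower and 17 higher, with a median log2 fold change of -0.09 where that of all genes tested was 0.02. In 4T1, 53 were tested, 15 were called lower and 22 higher, with a median of 0.10 against 0.00. The shares stood beside 26.8% lower and 27.2% higher among all genes of MDA-MB-231 and 29.4% and 29.5% of 4T1.

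The list of sugar precursor supply holds the enzymes that make UDP-glucuronic acid and UDP-N-acetylglucosamine. In MDA-MB-231, 5 of 8 genes tested were called lower and 0 higher (median -0.35). At an unadjusted p under 0.05, 1 of the 8 were higher, and DESeq2 called 0 higher. The block on the replicate number called 2 higher, *GFPT1* with a log2 fold change of 0.25 (adjusted p = 0.000141 by the edgeR test) and *UGDH* with 0.18 (adjusted p = 0.0424). *UAP1*, the last enzyme to UDP-N-acetylglucosamine, fell from 213 ± 20.2 to 71.4 ± 1.74 CPM (log2 fold change -1.57, standard error 0.09, adjusted p = 7.86e-08 in the edgeR fit, Benjamini-Hochberg). *GNPNAT1* (-1.35), *PGM3* (-0.74) and *GFPT2* (-0.45), which act before it in the hexosamine route, fell as well. In 4T1, 3 of 7 were called lower and 2 higher (median -0.11). *Gfpt1*, the rate-limiting enzyme of the hexosamine route, fell from 130 ± 8.66 to 60.3 ± 7.69 CPM (-1.11, standard error 0.09, adjusted p = 1.72e-07 in the edgeR fit), and *Gnpnat1* fell by 1.00 on the log2 scale. The third gene called lower was *Ugdh*, from 324 ± 18.0 to 273 ± 3.44 CPM (-0.25, standard error 0.07, adjusted p = 0.00825 in the edgeR fit). That call was lost with total counts (-0.13). *Ugp2*, which makes UDP-glucose, rose from 28.3 ± 7.65 to 63.6 ± 7.45 CPM (1.17, standard error 0.15, adjusted p = 1.52e-05) and *Pgm1* rose by 0.39 on the log2 scale. *GNPNAT1* was the gene of this list called lower in both lines, while *UAP1* differed between the lines by 1.46 (standard error 0.12, adjusted p = 9.29e-09 by the edgeR test of the interaction).

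The list of other hyaluronan breakdown genes moved upward in 4T1. All 4 genes tested there were called higher (median 1.07), among them *Hexa* (18.7 ± 1.81 to 42.8 ± 1.53 CPM, 1.20) and *Gusb* (11.6 ± 1.32 to 22.2 ± 1.33 CPM, 0.94), lysosomal enzymes that remove the sugars of the fragments, with adjusted p-values of 1.52e-07 and 1.03e-05 by the edgeR test. *Cemip2*, a paralog of *Cemip* at the cell surface, rose by 0.57 on the log2 scale, and *Hyal3*, whose exons overlap *Hyal1*, was the fourth. *Hyal3* had only 12 counts with DMSO and 51 with ponatinib, and with the overlap these are uncertain. In MDA-MB-231, 1 of 4 was called lower and 1 higher (median 0.13). The latter was *HEXA* (5.29 ± 0.104 to 8.59 ± 0.922 CPM, 0.70, adjusted p = 0.00192 by the edgeR test), which was thus called higher in both lines. With the replicate block 2 were called higher in MDA-MB-231, *GUSB* being added at 0.19 (adjusted p = 0.00232 by the edgeR test). There *CEMIP2* fell from 46.6 ± 5.98 to 24.9 ± 1.22 CPM (-0.90, standard error 0.11, adjusted p = 2.96e-05 in the edgeR fit), opposite in direction to *CEMIP* in that line and to *Cemip2* in 4T1. The difference of *CEMIP2* between the lines was 1.48 (standard error 0.16, adjusted p = 5.48e-07 by the edgeR test of the interaction).

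Of 17 other hyaluronan receptors and binding proteins, 5 were tested in MDA-MB-231, 0 were called lower and 3 higher (median 0.42), and 6 were tested in 4T1, 3 called lower and 1 higher (median -0.63). Over MDA-MB-231, 0 of the 5 were lower at an unadjusted p under 0.05 and DESeq2 called 0 lower. *LAYN*, a membrane receptor for hyaluronan, rose from 82.9 ± 0.837 to 102 ± 5.03 CPM (0.29, adjusted p = 0.00547 by the edgeR test) and the link protein *HAPLN3*, which ties proteoglycans to hyaluronan, from 31.3 ± 3.36 to 41.7 ± 3.34 CPM (0.42, adjusted p = 0.00524). In 4T1, *Hmmr*, a hyaluronan-binding protein that is also part of the mitotic spindle, fell from 50.8 ± 3.52 to 31.9 ± 0.963 CPM (-0.67, adjusted p = 1.22e-05). *LAYN* differed between the lines by -1.10 (standard error 0.17, adjusted p = 2.50e-05 by the edgeR test of the interaction).

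The list of chondroitin sulfate chain synthesis covers the enzymes that build and sulfate the chains of aggrecan and versican. In MDA-MB-231, 11 of 23 genes tested were called lower and 1 higher (median -0.24). With the replicate block 14 were called lower, *FAM20B* (-0.19), *CHPF* (-0.16) and *CHST12* (-0.17) being added, and 3 higher, *PAPSS1* (0.26) and *B3GAT3* (0.11) being added with adjusted p-values of 0.000523 and 0.0461 by the edgeR test. *CSGALNACT2*, which starts the chain, fell from 55.4 ± 8.22 to 24.8 ± 5.96 CPM (-1.16, adjusted p = 0.000105), *B3GALT6*, a linker enzyme, by 0.92, *CHSY1*, a chain polymerase, by 0.88 and *DSE*, the epimerase that makes dermatan sulfate, by 0.80 on the log2 scale. In 4T1, 5 of 20 were called lower and 7 higher (median 0.05). There *Papss2*, which makes the sulfate donor, rose from 32.4 ± 1.36 to 78.8 ± 2.52 CPM (1.28, adjusted p = 7.04e-09), and the sulfotransferases *Chst11* (1.18) and *Chst12* (1.12) rose, while *Chsy3*, another polymerase, fell by 0.75 on the log2 scale. *CHST11* was called lower in MDA-MB-231 (-0.67), and the lines differed by 1.84 (adjusted p = 2.98e-09 by the edgeR test of the interaction).

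Of 8 genes of proteoglycan cleavage, 4 were tested in MDA-MB-231, 2 called lower and 2 higher (median -0.40), and 5 in 4T1, 2 called lower and 2 higher (median -0.56). *ADAMTS1*, an aggrecan- and versican-cleaving protease, fell in both lines. It went from 63.1 ± 6.68 to 8.81 ± 1.76 CPM in MDA-MB-231 (-2.83, standard error 0.14, adjusted p = 3.84e-08 in the edgeR fit) and from 38.3 ± 4.80 to 6.51 ± 1.13 CPM in 4T1 (-2.55, standard error 0.14, adjusted p = 2.46e-09 by the same test). *ADAMTS15*, a protease of the same family, rose by 1.09 in MDA-MB-231, and *Adamts15* had 0 counts in the 3 DMSO libraries of 4T1 and 99 in the ponatinib libraries, at least 31.0-fold higher against the floor of 3 counts over the group. The median of this list in 4T1 was the same with *Adamts15* set to that bound. *TIMP3*, an inhibitor of such proteases, rose in MDA-MB-231 (30.3 ± 3.11 to 58.7 ± 5.81 CPM, 0.95) and *Timp3* fell in 4T1 (4.99 ± 0.471 to 1.53 ± 0.134 CPM, -1.70), a difference of -2.65 between the lines (adjusted p = 7.73e-09 by the edgeR test of the interaction). *ADAMTS9*, of the same family as *ADAMTS1*, was called lower in MDA-MB-231 (9.86 ± 1.44 to 2.89 ± 0.903 CPM, -1.75). *Adamts9* was called higher in 4T1 (2.60 ± 0.392 to 4.28 ± 0.544 CPM, 0.72). The difference between the lines was 2.47 (standard error 0.30, adjusted p = 1.84e-06 by the edgeR test of the interaction). *Timp3* and *Adamts15* of 4T1 and *ADAMTS9* in both lines averaged below 10 CPM and were named after their values were seen.

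Among 30 other proteoglycan core proteins, 17 were tested in MDA-MB-231, 5 called lower and 10 higher (median 0.72), and 11 in 4T1, 2 called lower and 6 higher (median 0.28). The earlier known fall of *ESM1* was part of this list, from 110 ± 10.6 to 3.25 ± 0.352 CPM (-5.08, standard error 0.12) in MDA-MB-231. The heparan sulfate proteoglycans *HSPG2* (perlecan, 53.6 ± 5.91 to 168 ± 31.1 CPM, 1.65), *GPC1* (glypican-1, 20.4 ± 1.09 to 62.7 ± 6.16 CPM, 1.62) and *SDC2* (syndecan-2, 25.0 ± 2.76 to 63.2 ± 3.19 CPM, 1.34) rose, with adjusted p-values of 1.07e-06, 1.97e-07 and 8.10e-07 by the edgeR test. Others of this list did not rise there. *SDC1* (syndecan-1) was called lower (283 ± 19.6 to 157 ± 7.25 CPM, -0.85), as were *SRGN*, *CSPG5* and *SPOCK1*, and *SDC4* was not called (-0.06). In 4T1, *Gpc1* fell from 929 ± 51.1 to 471 ± 18.7 CPM (-0.98, adjusted p = 8.16e-08), opposite to MDA-MB-231, and the difference was -2.60 (standard error 0.12, adjusted p = 1.01e-11 by the edgeR test of the interaction). *Sdc2* (0.86) and *Sdc1* (0.28) rose in 4T1 and *Sdc4* was called lower at -0.20, a call that was lost with total counts (-0.09) and without ponatinib replicate 1 (-0.19) or 2 (-0.19). *Prelp* had 0 counts with DMSO and 65 with ponatinib in 4T1, at least 20.4-fold higher against the same floor, and was named after its values were seen.

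**Figure D5:**
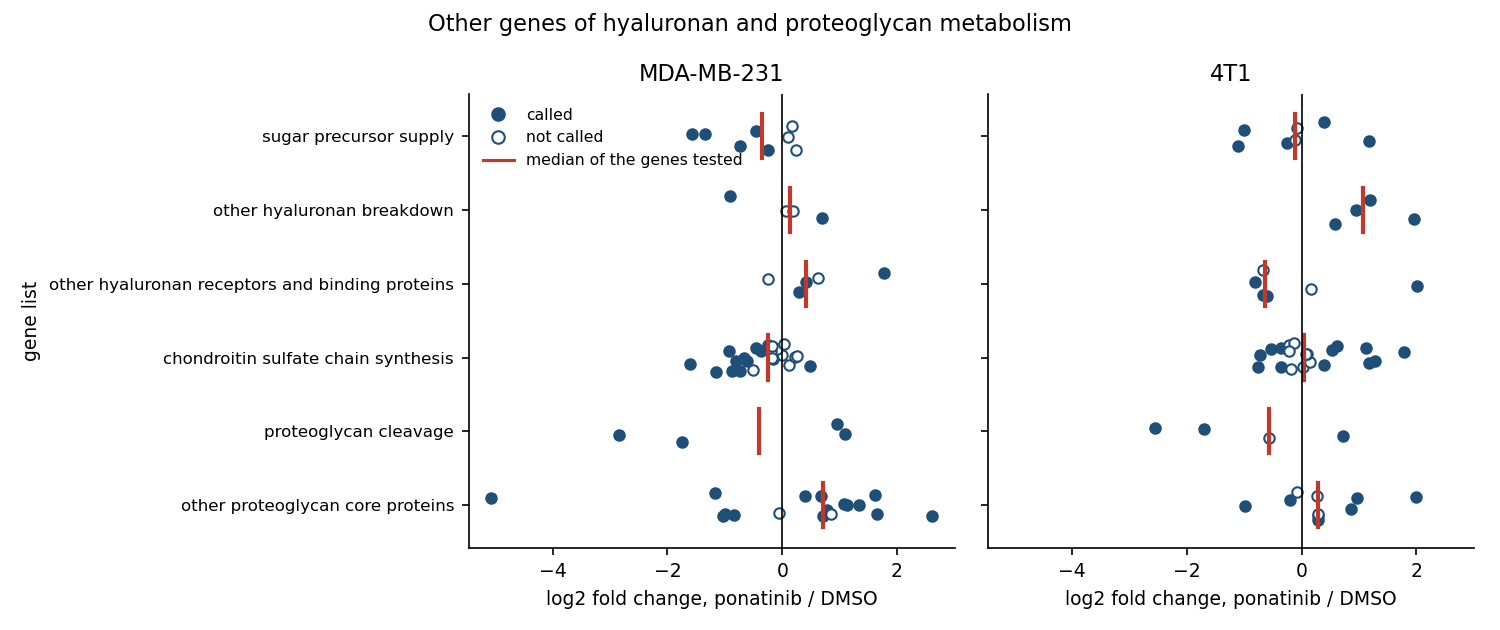
Log2 fold change with ponatinib of each tested gene of the 6 lists in MDA-MB-231 and 4T1, filled where called, with the median of the genes tested in red. *Adamts15* and *Prelp*, at 0 counts with DMSO in 4T1, are not drawn. Sugar precursor supply and chondroitin sulfate chain synthesis have medians of -0.35 and -0.24 in MDA-MB-231, and the 4 breakdown genes of 4T1 all lie above 0.

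Of 65 pathway pairs tested for a difference between the lines, 38 were called, beside 42.0% of all 12489 pairs. Called changes went in opposite directions in 11 pairs, both lower in 4 and both higher in 6, or 16.9%, 6.15% and 9.23% of the 65, beside 8.32%, 11.8% and 9.65% of all 12489 pairs. Markers of other cell types also moved with treatment in part. The 6 fibroblast markers summed to 26.4 to 31.5 CPM with DMSO and 81.0 to 87.7 CPM with ponatinib in MDA-MB-231, with *DCN* and *LUM* near 0. *COL1A1* carried most of it (27.8 to 74.8 CPM on average), and *PDGFRB* rose from 21 to 464 counts. In 4T1 they summed to 6.66 to 7.54 CPM with DMSO and 9.50 to 10.2 CPM with ponatinib, where *Col1a1* was called higher (3.42 to 8.21 CPM) and *Pdgfra* (2.86 to 1.55 CPM) and *Pdgfrb* (39 to 0 counts) lower, and *Col1a2*, *Dcn* and *Lum* were at 0. The 5 leukocyte markers summed to at most 0.0662 CPM in MDA-MB-231 and 3.23 CPM in 4T1. The 4 endothelial markers summed to 4.17 to 5.28 CPM with DMSO and 3.46 to 6.01 CPM with ponatinib in MDA-MB-231. In 4T1 they went from 3.22 to 5.19 CPM with DMSO to 1.03 to 1.497 CPM with ponatinib, *Kdr* being called lower (185 to 47 counts, -2.06). The epithelial sum was 2031 to 2476 CPM with DMSO and 2981 to 3781 CPM with ponatinib in MDA-MB-231. In 4T1 it was 7882 to 9079 CPM with DMSO and 8021 to 8833 CPM with ponatinib. Within that sum *Krt18* (3243 to 2236 CPM) and *Krt7* (11.5 to 6.28 CPM) were called lower and *Krt8* (2386 to 2816 CPM) higher. The part of the markers in the changes above was not tested. Scaling by total counts moved the median over all genes. It became 0.11 for MDA-MB-231 and 0.12 for 4T1, where the share of higher genes among those called went from 50.4% to 59.9% and from 50.1% to 62.3%. Under it *HAS2*, *Has2*, *Has3*, *CD44*, *Cd44*, *HYAL2*, *Acan*, *CEMIP* and *Cemip* kept their directions and calls, and *Hyal2* was called higher.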

How the data were processed

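Counts of reads per gene were deposited by the authors as whole numbers without normalization, 1 table for each of the 12 libraries (MDA-MB-231 and 4T1, ponatinib or DMSO). According to the methods, TRIzol RNA was made into NEBNext Ultra libraries, and reads were aligned with HISAT2 to hg38 or GRCm39 and counted with HTSeq. Tool versions, the annotation and the strand setting are not given in the sources used here. Groups were taken from the labels. Identifiers were matched to GENCODE v44 (81.9% of 63677, holding 99.3% of counts) and vM39 (91.1% of 47729, holding 99.8%).

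Each line was fitted apart with edgeR 4.0.16 in R 4.3.3 (filterByExpr, TMM, quasi-likelihood test, Benjamini-Hochberg over all genes tested), the standard error being the log2 fold change over the square root of F. Variation between libraries (common coefficient of edgeR), which may be technical, was 0.0990 for MDA-MB-231 and 0.0869 for 4T1. CPM used TMM-scaled totals, and TPM the joined exon length. The line difference was the interaction of line and treatment over genes paired by symbol. Fits were tested on simulated data. No library was a copy of another (chi-square per gene between replicates 2.95 to 16.5), and intervals cover counting error only. Deviations of equally numbered DMSO and ponatinib libraries correlated at 0.345, 0.111 and 0.133 (MDA-MB-231) and at 0.213, 0.119 and 0.115 (4T1). Each is above 0.1, though no label says what a number marks. The values given are from fits without a block on the number. Where a call changed with the block, the blocked value stands beside the result or in the last section. Alternatives were DESeq2 1.42.0, its size factors, total counts, a minimum of 10 counts per library, no filter, the replicate block, each library left out and the longest transcript as length.

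The 9 genes, the 6 lists and the 4 marker lists were chosen with earlier results of these data known, the fall of *ESM1* among them. Named were the 9 genes, opposite-strand genes over exons of called members, the 3 most similar genes of *HAS2* and *Acan*, and in each list and line up to 4 genes with the largest change at an adjusted p-value under 0.05, at least 10 CPM and no overlap between groups. Genes named outside this rule were chosen after their values were seen: *TUSC2*, *Naa80*, *Hyal3*, *Ugdh*, *Timp3*, *Adamts9*, *Adamts15* and *Prelp* of 4T1, *CHST11*, *ADAMTS9* and *HEXA* of MDA-MB-231, the markers, and those whose call changed with an alternative (*GFPT1*, *UGDH*, *GUSB*, *PAPSS1*, *B3GAT3*, *FAM20B*, *CHPF* and *CHST12* among them). Results for 1 further gene and for 1 promoter are not reported here.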

Additional observations from a re-analysis of the deposited data

Results flagged for a closer look

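The members and the list genes named by the rule above in either line were compared between the lines. Of these, 26 pairs with counts in every group changed differently, at an adjusted p-value under 0.05 of the edgeR interaction test. Members and named genes were chosen with changes within a line known, so no comparison with the 42.0% of all 12489 pairs is made. Without the choice of named genes, 5 of 8 members and 38 of 65 pathway pairs tested were called. The values are differences of log2 fold changes, 4T1 minus MDA-MB-231, and no explanation was tested.

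Among the members, whose choice used these changes, the differences were 3.84 for *HAS2*, -2.61 for *HAS3*, 0.43 for *CD44* and 0.59 for *HYAL2*. In sugar precursor supply they were 1.41 for *UGP2*, -1.35 for *GFPT1*, 0.67 for *PGM3* and 1.46 for *UAP1*. The 3 breakdown genes concerned had a higher value in 4T1, by 1.48 for *CEMIP2*, 0.50 for *HEXA* and 0.75 for *GUSB*. Both binding proteins concerned had a lower value in 4T1, by -1.10 for *LAYN* and -2.02 for *HAPLN3*. The latter rests on few counts, as *Hapln3* had 18 with DMSO and 6 with ponatinib in 4T1. Its groups overlapped there and it did not pass the filter on low counts of that line.

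In chondroitin sulfate chain synthesis, the 8 genes concerned had a higher value in 4T1, by 1.08 for *B3GALT6*, 0.80 for *CSGALNACT2*, 0.66 for *CHSY1*, 0.84 for *CHSY3*, 1.84 for *CHST11*, 1.30 for *CHST12*, 0.66 for *DSE* and 1.52 for *PAPSS2*. The protease inhibitor *TIMP3* differed by -2.65. Of the proteoglycan cores, *SDC1* differed by 1.13, *SDC2* by -0.48, *GPC1* by -2.60 and *HSPG2* by -1.39.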

How the results depend on the processing

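No called change reversed under any alternative run, while the uncalled changes of *HAS3* (-0.05 to 0.27) and *HYAL1* (-0.33 to 0.18) in MDA-MB-231 crossed 0. Over 12 alternatives, the log2 fold change lay between -3.56 and -3.36 for *Acan*, and over 11 between -6.37 and -5.58 for *HAS2*, which the filter of 10 counts in every library leaves out. The counts of called genes that moved by more than 1.5 times were small ones. In MDA-MB-231, 0 genes of sugar precursor supply were called higher, but 2 with total counts, 1 with the filter of 10 counts, 2 with the replicate block and 0 to 1 with a library left out (1 without ponatinib replicate 1). Other breakdown genes called higher went from 1 to 2 with total counts, the filter of 10 counts or the block, and those of chondroitin sulfate chain synthesis from 1 to 2, 2 and 3, and to 1 to 2 with a library left out (2 without ponatinib replicate 1). In 4T1, other proteoglycan cores called lower went from 2 to 1 with total counts and to 1 to 2 with a library left out (1 without ponatinib replicate 1 or 2, where *Sdc4* was lost), cleavage genes called higher from 2 to 1 with the filter of 10 counts, and members called higher from 2 to 1 with DESeq2 and to 1 to 2 with a library left out, *Hyal1* being lost. Apart from these, from *Hyal2*, and from *FAM20B*, *CHPF*, *CHST12* and *Chsy1*, called lower with it, and *GPC2* and *Hspg2*, called higher, the block on the replicate number changed no call of a member or list gene. The blocked log2 fold change was -0.23 for *Chsy1* and 0.26 for *Hspg2* in 4T1 and 0.87 for *GPC2* in MDA-MB-231. Over the 67 members and list genes tested in MDA-MB-231 and the 61 in 4T1, the block thus added 9 and 3 calls. Total counts ended 2 and 3 and added 4 and 3, the filter of 10 counts ended 1 and 0, added 3 and 1 and left 6 untested in each line, DESeq2 ended 0 and 2, and no filter added 1 in each. Leaving out a library ended 0 to 2 and 0 to 3 and added 0 to 3 in both lines. The calls ended by any of these were those of *UGP2* and *PAPSS2* in MDA-MB-231 and of *Ugdh*, *Csgalnact2*, *Sdc4*, *Hyal1*, *Tgfbr3* and *Agrn* in 4T1.

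With the longest transcript as length, the summed synthase level was 11.8 TPM in MDA-MB-231 with DMSO, 4.61 TPM in 4T1 with DMSO and 1.21 TPM in 4T1 with ponatinib, and *HAS2* held 92.1% in MDA-MB-231 and *Has2* 53.7% in 4T1 with DMSO. Over the named genes, 16 TPM values moved by more than their SD. Depth limits *HAS1*, *ACAN* and *VCAN* in MDA-MB-231 and *Has1* in 4T1, each at 26 counts or fewer in a group.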
